A study of Mus musculus with 16 samples.

Results

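Wnt ligands, their Frizzled receptors and the secreted antagonists of the pathway were examined in mouse iPSC lines of 2 origins, the proximal tubule cell (PTC) of the kidney and the fibroblast of the tail tip (TTF). The genes were taken by symbol, as every gene named Wnt, Fzd, Sfrp or Dkk followed by its number, without Wnt4, Wnt9b and Wnt11. This gave 34 genes, of 43984 listed in the table of histone marks and 55471 in the table of CpG methylation. They were 16 Wnt ligands, 10 Frizzled receptors (Fzd1 to Fzd10) and 8 antagonists (Sfrp1, Sfrp2, Sfrp4, Sfrp5 and Dkk1 to Dkk4). All 34 were listed in both tables.

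The study asked whether iPSCs keep an epigenetic trace of the cell of origin, and so compared PTC iPSC with TTF iPSC in 16 samples covering 4 assays. H3K4me3, a mark of gene starts, and H3K36me3, a mark laid down over transcribed gene bodies, were measured by ChIP-seq in lines PTC11, PTC12, TTF1 and TTF4. H3K27me3, a mark of repressed genes, was measured by ChIP-seq in TTF1, TTF4 and 2 libraries that both carry the name PTC11. CpG methylation at the transcription start site (TSS), called mCpG here, was measured by nanopore sequencing in PTC11, PTC12, TTF1 and TTF4. The line was the replicate, with n = 2 lines for each origin in every assay but H3K27me3.

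All the lines came from littermates that carried SLC34a1-GCE, a tdTomato reporter, rtTAROSA (neo-in) and OKMS-250, the last of which encodes reprogramming factors inducible by doxycycline. The GCE transgene makes GFP and a tamoxifen-dependent Cre under the SLC34a1 promoter of proximal tubule, and PTC were sorted for GFP and tdTomato after the mice had been fed tamoxifen. TTF do not use that promoter and received Cre from a non-integrating plasmid, so that the way Cre was supplied differed with the origin and cannot be told apart from it. Doxycycline induced reprogramming in both and was then withdrawn, and each line was grown from a selected clone. Both lines of an origin are therefore clones, and the paper describes the methylation replicates as independent animals. The paper states that ChIP was performed in duplicate on each line, but in the assays tested no repeat library of any line was available here. The ChIP-seq values of different lines may come from different duplicates, since their column names carry different suffixes. The spread between lines thus holds differences between clones, libraries and possibly animals, which cannot be told apart. The limma p-values rest on this spread and on that of other genes.

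Wnt proteins are secreted, lipid-carrying signals that bind Frizzled receptors on the cell surface together with the co-receptors Lrp5 and Lrp6. Binding keeps β-catenin from being degraded, and β-catenin then works with Tcf and Lef factors on target genes. Sfrp proteins carry a Frizzled-like domain that binds Wnt proteins outside the cell, while Dkk1, Dkk2 and Dkk4 bind Lrp5 and Lrp6. Dkk3 is the divergent member of the Dickkopf family. In mouse pluripotent cells canonical Wnt signalling supports self-renewal, and in the embryo Wnt ligands pattern the primitive streak, the mesoderm and the nephron.

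The promoters shown include those of Sfrp5 and Wnt2, which stood out as methylated in line TTF4, and Wnt8b, the most methylated ligand in every line. The others are that of Wnt16, which varied most between the PTC lines, and that of Fzd7, nearly free of methylation in all 4 lines. They are taken from the RefSeq table (build GRCm38.p6), which held 22 of the 34 genes. Dkk3 and Sfrp4, on which results below also turn, were not among the 22 and could not be shown. Each runs 5′ to 3′ on the strand of the gene and ends just before the RefSeq start of transcription, with every CG dinucleotide in capitals, since CpGs are the sites that were measured. Sfrp5 is shown at chr19:42202253-42202502 (minus strand), Wnt8b at chr19:44493222-44493471 (plus strand), Wnt16 at chr6:22287977-22288226 (plus strand) and Fzd7 at chr1:59481897-59482146 (plus strand). For Wnt2 the bases before the earliest annotated start are shown, at chr6:18030586-18030695 (minus strand).
Sfrp5: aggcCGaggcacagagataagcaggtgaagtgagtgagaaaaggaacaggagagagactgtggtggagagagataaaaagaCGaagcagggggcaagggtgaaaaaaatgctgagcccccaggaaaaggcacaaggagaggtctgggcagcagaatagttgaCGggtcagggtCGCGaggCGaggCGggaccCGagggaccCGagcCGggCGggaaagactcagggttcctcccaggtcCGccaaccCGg
Wnt2: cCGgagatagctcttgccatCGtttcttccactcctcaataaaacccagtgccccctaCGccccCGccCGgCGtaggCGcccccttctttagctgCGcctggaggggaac
Wnt8b: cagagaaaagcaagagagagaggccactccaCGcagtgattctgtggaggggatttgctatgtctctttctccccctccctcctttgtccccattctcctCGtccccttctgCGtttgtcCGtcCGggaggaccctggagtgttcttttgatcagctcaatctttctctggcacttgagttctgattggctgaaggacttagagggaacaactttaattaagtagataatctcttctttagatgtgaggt
Wnt16: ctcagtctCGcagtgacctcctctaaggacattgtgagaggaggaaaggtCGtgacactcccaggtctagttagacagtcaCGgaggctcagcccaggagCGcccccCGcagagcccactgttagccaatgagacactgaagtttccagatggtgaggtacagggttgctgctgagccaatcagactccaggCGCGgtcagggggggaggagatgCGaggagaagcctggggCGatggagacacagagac
Fzd7: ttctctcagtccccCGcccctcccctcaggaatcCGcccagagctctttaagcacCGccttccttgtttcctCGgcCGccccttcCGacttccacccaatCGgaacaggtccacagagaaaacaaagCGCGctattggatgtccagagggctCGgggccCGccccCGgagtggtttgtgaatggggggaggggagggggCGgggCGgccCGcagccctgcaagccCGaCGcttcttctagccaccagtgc

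Fzd7 held 17 CG in its 250 bases, Sfrp5 13, Wnt16 9 and Wnt8b 5. Of 32851 RefSeq promoters of that length, 92.1% held at least 1 CG, the median was 6, and 23.5% held 17 or more, 31.5% held 13 or more, 40.3% held 9 or more and 55.6% held 5 or more. CG reads the same on both strands, so that 1 count covers both. The shorter Wnt2 stretch held 8 in 110 bases, and 15.9% of stretches of the same length and position held 8 or more. A match of letters describes the window and says nothing of a binding factor.

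Over the wider window in which methylation was measured, 1000 bp to each side of the TSS, the 34 genes had a median of 116.5 CpGs, against 27 for all genes with a value in all 4 lines. Frizzled receptors had the most, with a median of 147, then Wnt ligands with 104.5 and antagonists with 73. Wnt9a had the most CpGs of the 34 genes, 176, and Dkk4 the fewest, 29. The TSS of every one of the 34 genes lay in an exon and in an annotated UTR of a protein-coding gene in GENCODE M21.

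The lines differed from each other in scale in every assay, whatever their origin. The median mCpG over all genes was 0.385, 0.539, 0.374 and 0.770 in PTC11, PTC12, TTF1 and TTF4. H3K4me3 had a value at 15114 to 19990 genes, fewer in PTC11 and TTF4, and the median H3K36me3 was under 2 RPKM in PTC11 and TTF1 and near 4 RPKM in PTC12 and TTF4. Marker genes of pluripotent cells had H3K4me3 at 9 of 10 genes in PTC11, PTC12 and TTF1 and at 7 of 10 in TTF4, with a median mCpG of 0.0278, 0.105, 0.0932 and 0.266. In TTF4 their mCpG ran from 0.0249 at Lin28a to 0.803 at Zfp42. Zfp42 and Dppa4 (0.759 in TTF4) had no H3K4me3 value there, and their mCpG in the other lines was 0.209 or lower. Proximal tubule markers had H3K4me3 at 2 or 3 of 8 genes in each line, and fibroblast markers at 3, 7, 7 and 5 of 10. The part of these differences in scale in the results for single genes was not tested. Neither table gives read depth or coverage, so that precision is known only from the spread between lines.

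CpG methylation was low at most of these genes. The mean of the 4 lines was under 0.2, the level called low here, at 25 of 34 genes, against 22.7% of 50657 genes with a value in all 4 lines. It was between 0.2 and 0.6 at 8 genes and above 0.6 only at Wnt8b, against 38.9% of all genes above 0.6. At 19 of 34 genes it stayed under 0.2 in each of the lines, as it did at 12.4% of all genes. These shares do not allow for CpG count, which was higher at the 34 genes. The 23 with 80 or more CpGs had median mCpG of 0.0817, 0.0872, 0.0767 and 0.103 in PTC11, PTC12, TTF1 and TTF4. All 9967 genes with that many had 0.0558, 0.0797, 0.0560 and 0.172, so that the 23 were lower only in TTF4. The median over the 34 genes was 0.0999, 0.132, 0.0951 and 0.164 in PTC11, PTC12, TTF1 and TTF4, so that TTF4, which stood well above the other lines over all genes, stood only a little above them here.

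**Figure D1:**
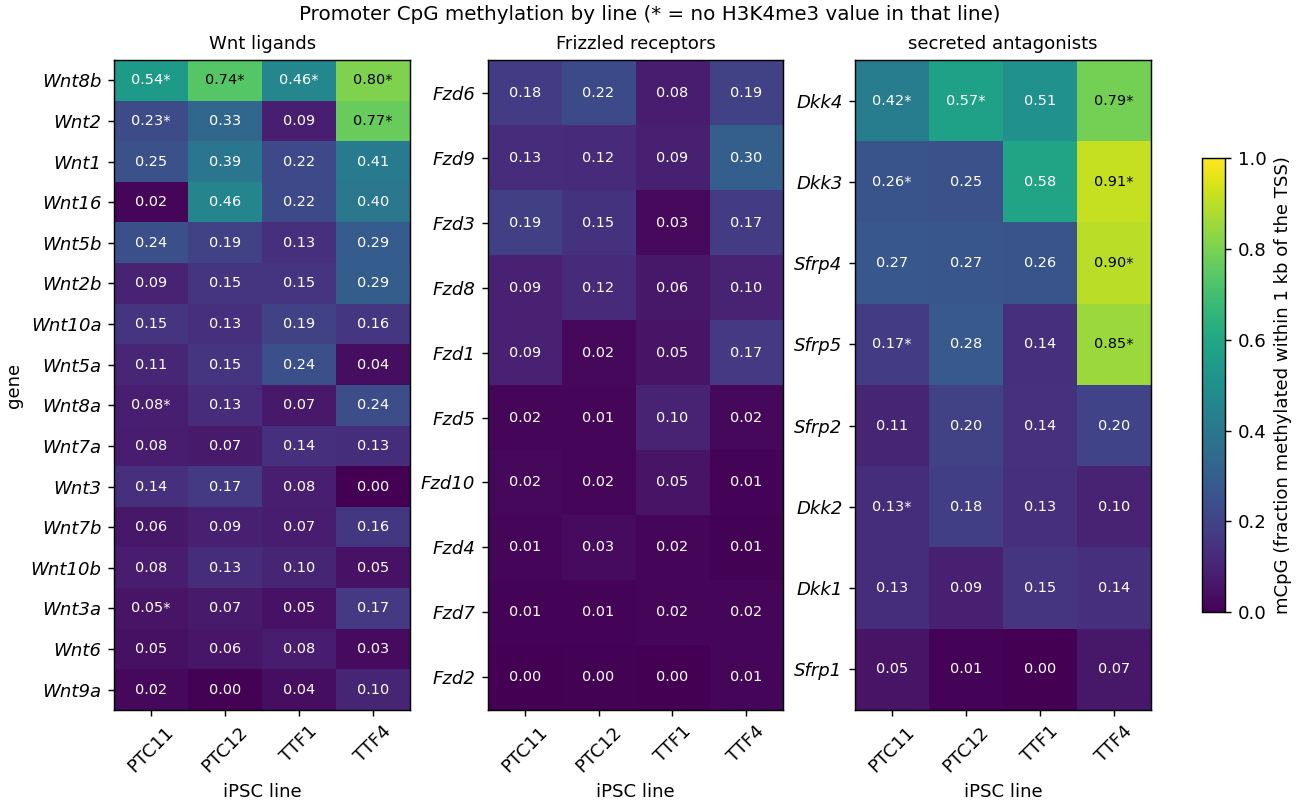
Heat map of mCpG, the fraction of methylated CpGs within 1 kb of the TSS, with genes in rows by class and the 4 iPSC lines in columns; the number in each cell is the fraction and an asterisk marks a line in which the gene had no H3K4me3 value. The cells above 0.6 are Wnt8b in PTC12 and 6 genes in TTF4 (Wnt8b, Wnt2, Dkk4, Dkk3, Sfrp4 and Sfrp5), and every one of them carries an asterisk.

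All 10 Frizzled receptors were in the low class. Their median mCpG was 0.0553, 0.0246, 0.0527 and 0.0600 in PTC11, PTC12, TTF1 and TTF4, and no receptor exceeded 0.301 in any line. Fzd2 was lowest, at 0.00196 in PTC11, 0.00395 in PTC12, 0.0142 in TTF4 and listed at 0 in TTF1. Fzd7, a receptor known from pluripotent stem cells, followed at 0.00909, 0.0101, 0.0178 and 0.0164 in PTC11, PTC12, TTF1 and TTF4. Fzd4, the receptor for Norrin as well as for Wnt ligands, ranged from 0.00775 to 0.0277, and Fzd10 from 0.00958 to 0.0519. These 4 promoters were thus close to unmethylated in every line, TTF4 included.

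The receptors with more methylation were Fzd6, Fzd9 and Fzd3. Fzd6, a receptor of planar cell polarity, was at 0.177, 0.225, 0.0772 and 0.194 in PTC11, PTC12, TTF1 and TTF4. Fzd3, its close relative in axon guidance and planar polarity, was at 0.189, 0.148, 0.0258 and 0.172. At both genes TTF1 was the lowest line while TTF4 fell among the PTC lines. Fzd9 was at 0.128, 0.121 and 0.0897 in PTC11, PTC12 and TTF1 and at 0.301 in TTF4, the highest value of any receptor.

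Among the Wnt ligands 11 of 16 were in the low class. Wnt9a, which acts in joint formation, had the lowest mean, with 0.0202, 0.00392, 0.0373 and 0.103 in PTC11, PTC12, TTF1 and TTF4. Wnt3, needed to form the primitive streak, was at 0.135, 0.170 and 0.0825 in PTC11, PTC12 and TTF1 and was listed at 0 in TTF4. Wnt3a, the canonical ligand of paraxial mesoderm, was at 0.0510, 0.0738, 0.0473 and 0.167, and Wnt6 stayed between 0.0311 and 0.0767. Wnt3 thus had its lowest value in TTF4, the line that was highest over all genes. TTF4 was the lowest line also at Wnt5a, Wnt6, Wnt10b, Fzd4, Fzd10 and Dkk2. The coverage behind the listed 0 is not known.

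Wnt1, Wnt2, Wnt5b and Wnt16 were in the intermediate class. Wnt1, the ligand of the midbrain and hindbrain boundary, was at 0.248, 0.393, 0.219 and 0.415 in PTC11, PTC12, TTF1 and TTF4, so that 1 line of each origin was high and the other low. Wnt16 was at 0.0174 in PTC11 and 0.457 in PTC12, the widest gap between lines of the PTC origin, with TTF1 at 0.223 and TTF4 at 0.398 between them. Wnt2b and Wnt5a, of the low class by their means, passed 0.2 in 1 line each, Wnt2b at 0.294 in TTF4 and Wnt5a at 0.243 in TTF1. Wnt5b, a mostly non-canonical ligand, was at 0.245, 0.192, 0.133 and 0.289. It had 174 CpGs within 1 kb of the TSS, close to the most of any gene here, and yet was not in the low class.

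Wnt2, a ligand of lung and placental development, was at 0.230, 0.332, 0.0853 and 0.769 in PTC11, PTC12, TTF1 and TTF4. The lowest and the highest line were therefore both of TTF origin. Wnt8b, a ligand of the forebrain, was the most methylated ligand in every line, at 0.544, 0.737, 0.463 and 0.805. Wnt8a, its relative of the early mesoderm, has the same number of CpGs in the window, 38, but was at 0.0828, 0.128, 0.0676 and 0.236. The 2 genes thus had equal CpG counts and differed in methylation in each line.

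The antagonists divided evenly. Sfrp1, Sfrp2, Dkk1 and Dkk2 were in the low class (Sfrp2 reached 0.202 in TTF4), with Sfrp1 lowest at 0.0540 in PTC11, 0.0112 in PTC12 and 0.0653 in TTF4 and listed at 0 in TTF1. Dkk1, an inhibitor of Lrp6 that shapes the anterior of the embryo, stayed between 0.0878 and 0.155. Sfrp4, Sfrp5, Dkk3 and Dkk4 were in the intermediate class by their mean, which hid a wide range between lines.

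Sfrp4 (chr13:19623104-19632994, plus strand) was at 0.271, 0.267, 0.261 and 0.897 in PTC11, PTC12, TTF1 and TTF4. Sfrp5 (chr19:42197971-42202252, minus strand) was at 0.175, 0.277, 0.141 and 0.850 in the same order. At both, PTC11, PTC12 and TTF1 lay close together and TTF4 stood apart. Dkk4 (chr8:22624043-22627547, plus strand) was at 0.423, 0.571, 0.506 and 0.793, a narrower range that started higher.

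Dkk3 (chr7:112116017-112159057, minus strand) had the widest separation of the origins. It was at 0.259 in PTC11 and 0.248 in PTC12, and at 0.583 in TTF1 and 0.913 in TTF4. The PTC mean was 0.254 ± 0.00792 and the TTF mean 0.748 ± 0.233 (SD, n = 2 lines each). The lines of PTC origin were nearly equal and those of TTF origin were not, and the groups did not overlap. The difference after subtracting the mean of each line was 0.407 ± 0.155 (SE), with an unadjusted p of 0.0110 in limma. Adjusted over the 50657 genes the limma p was 0.837, so that the difference did not pass the threshold of 0.05.

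In 5 of 34 genes TTF4 was at least 0.2 above each of the other lines, against 30.1% of all genes. They were Dkk3, Dkk4, Sfrp4, Sfrp5 and Wnt2, which is 4 of 8 antagonists, 1 of 16 ligands and no receptor. TTF4 was the highest line at 18 of 34 genes, against 75.4% of all genes. By class this was 6 of 8 antagonists, 9 of 16 ligands and 3 of 10 receptors. By this count ligands and receptors were below the background and antagonists near it, while by the count of at least 0.2 antagonists were above it. The deposited fraction is an average over the reads of a culture, and from it a share of cells with a fully methylated promoter and partial methylation in all cells cannot be told apart.

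Genes with and without H3K4me3 were most clearly separated in methylation in TTF4. The 6 genes without an H3K4me3 value in TTF4 (Wnt2, Wnt8b, Dkk3, Dkk4, Sfrp4 and Sfrp5) had mCpG from 0.769 to 0.913 there, and the 28 genes with a value from 0 to 0.415. In TTF4 89.6% of all genes without an H3K4me3 value and 6.98% of those with one had mCpG of at least 0.6, so the same separation ran through the whole table. In PTC11 the 8 genes without a value reached from 0.0510 at Wnt3a to 0.544 at Wnt8b, and the 26 with one reached 0.271, so that the ranges overlapped. In PTC12 the genes without a value were Dkk4 (0.571) and Wnt8b (0.737), above every gene with one. In TTF1 Wnt8b alone had none, at 0.463, while Dkk3 had a value at an mCpG of 0.583.

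**Figure D2:**
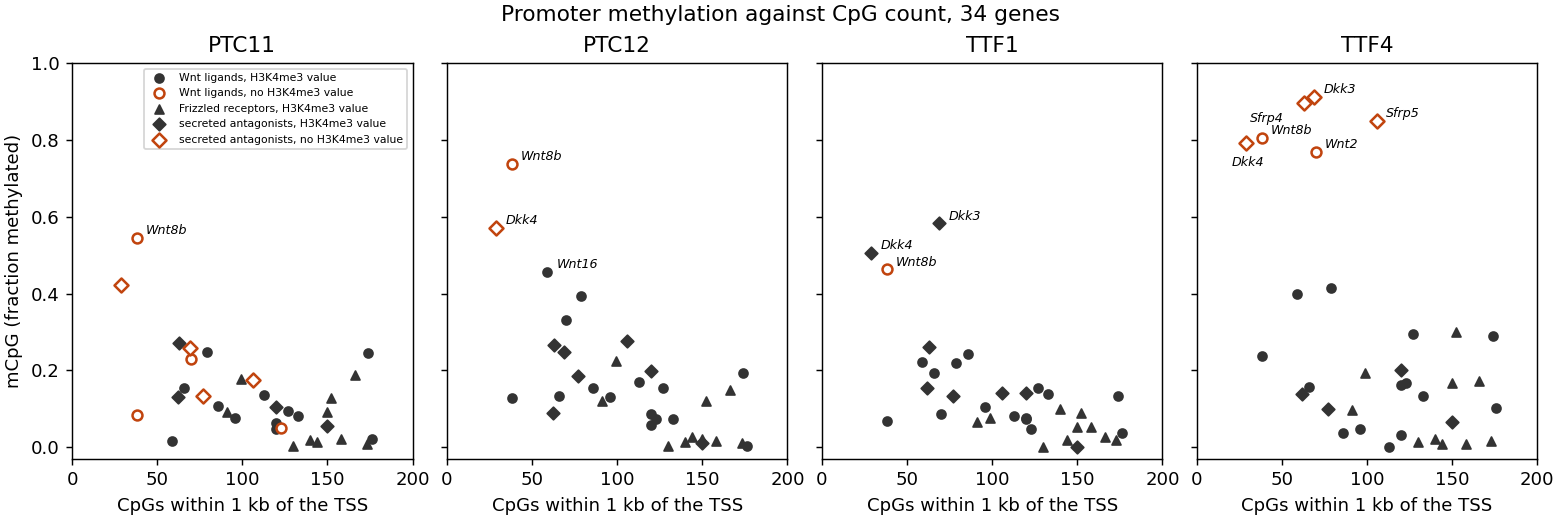
mCpG (fraction, vertical axis) against the number of CpGs within 1 kb of the TSS (horizontal axis) for the 34 genes in each line; circles are Wnt ligands, triangles Frizzled receptors and diamonds antagonists, filled where the gene had an H3K4me3 value in that line and open where it had none. In TTF4 all 6 open symbols lie at 0.769 or above and all filled ones at 0.415 or below, and Sfrp5, with 106 CpGs, is the open symbol farthest to the right.

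Genes with more CpGs were less methylated in each line. Across the 34 genes Spearman's rho between CpG count and mCpG was -0.48, -0.68, -0.68 and -0.46 in PTC11, PTC12, TTF1 and TTF4, and over 50657 genes it ran from -0.63 to -0.56. This is across genes, which share the library, its coverage and their base composition, and carries no test. Of the 23 genes with 80 or more CpGs, the highest value in any line was that of Sfrp5 in TTF4, 0.850, and the next gene was Fzd9, also in TTF4, at 0.301. The 11 genes with fewer had medians of 0.230, 0.267, 0.219 and 0.415 in PTC11, PTC12, TTF1 and TTF4. All 40690 genes with fewer than 80 CpGs had higher medians, 0.453, 0.613, 0.453 and 0.821.

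H3K4me3 was present at most of the genes. A value in all 4 lines was found at 25 of 34 genes, against 31.2% of all genes listed. All 10 receptors had one, 12 of 16 ligands and 3 of 8 antagonists. By line the number of genes with a value was 26, 32, 33 and 28 in PTC11, PTC12, TTF1 and TTF4. PTC11 and TTF4 were the lines with fewest values over all genes too. An absent value means that no peak was kept at the gene, not that the mark was measured at 0.

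The values were as high as those of a typical promoter at the receptors and lower at the ligands. The median over genes with a value, in RPKM after subtraction of input, was 3.42, 5.76, 5.80 and 3.83 in PTC11, PTC12, TTF1 and TTF4 for receptors. For ligands it was 3.17, 4.14, 4.40 and 3.20. All genes with a value had medians of 3.69, 4.59, 5.01 and 3.65. Receptors were thus above all genes in PTC12, TTF1 and TTF4 and below them in PTC11, and ligands below them in each line. The antagonists, with 4, 7, 8 and 4 genes that had a value, were at 3.50, 3.98, 3.82 and 3.64.

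**Figure D3:**
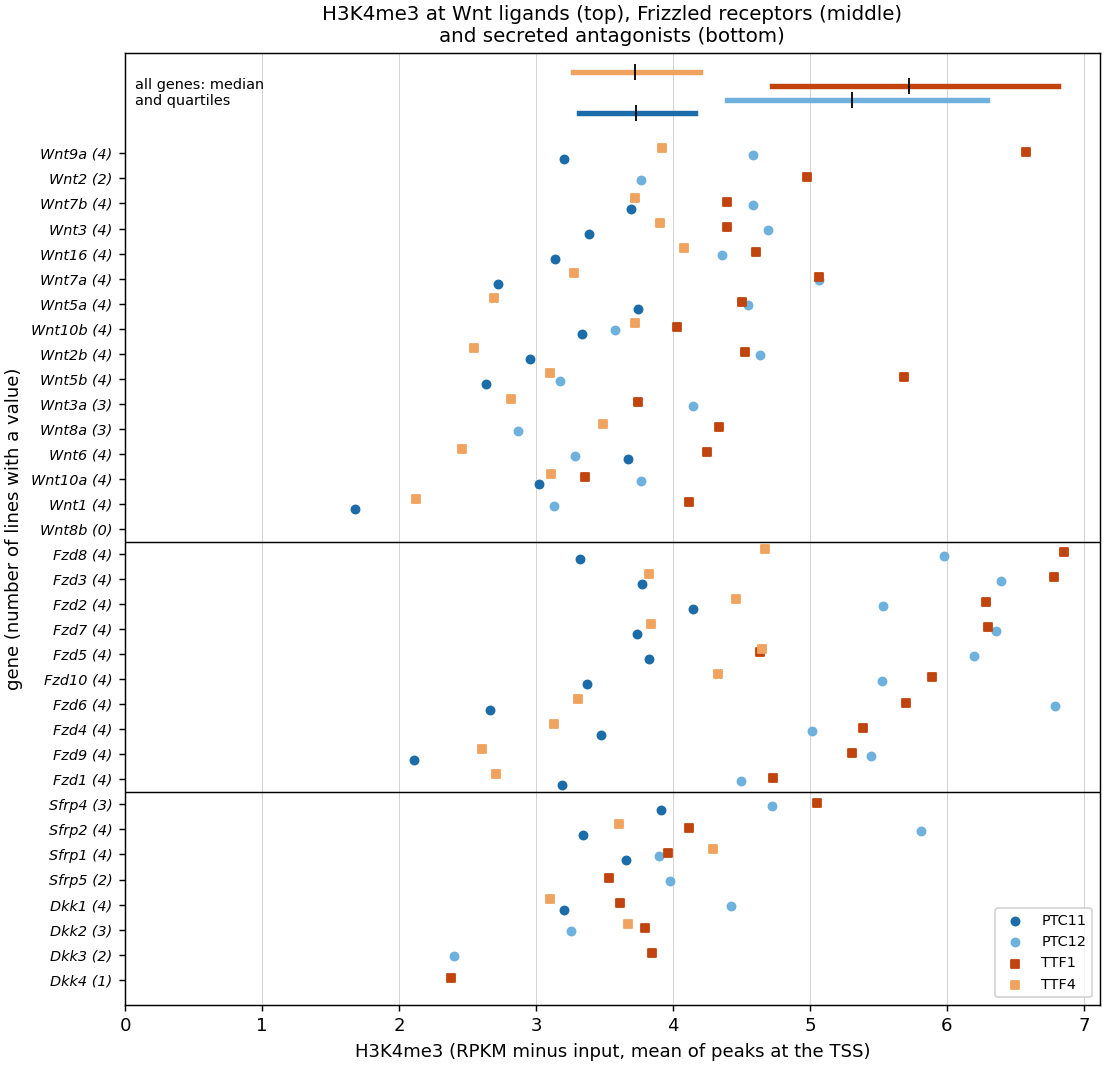
H3K4me3 in RPKM minus input (horizontal axis) for each gene (rows, with the number of lines that had a value), 1 point per line, circles for PTC11 and PTC12 and squares for TTF1 and TTF4; the bars at the top give the quartiles and median of all genes with a value in all 4 lines. PTC11 and TTF4 lie to the left of PTC12 and TTF1 at 21 of the 25 genes with a value in all lines, and Wnt8b has no point.

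Among receptors Fzd8 had the highest mean, with 3.32, 5.98, 6.86 and 4.67 RPKM in PTC11, PTC12, TTF1 and TTF4. Fzd1 had the lowest, with 3.19, 4.50, 4.73 and 2.71. Fzd3 was at 3.77, 6.39, 6.78 and 3.82 and Fzd7 at 3.74, 6.36, 6.30 and 3.84. The last of these show the common pattern, in which PTC12 and TTF1 were nearly equal, PTC11 and TTF4 were nearly equal, and each origin held 1 line of each kind. Fzd6 had its widest range between PTC11 (2.66) and PTC12 (6.79), lines of the same origin.

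Among ligands Wnt9a was highest, at 3.20, 4.58, 6.58 and 3.92 RPKM in PTC11, PTC12, TTF1 and TTF4, and Wnt1 lowest, at 1.68, 3.13, 4.12 and 2.13. Wnt5b, at 2.63, 3.18, 5.68 and 3.10, had the largest difference between origins, which rested on TTF1 (0.07 on the log2(RPKM + 1) scale without it). Wnt3, the primitive streak ligand, was at 3.39, 4.69, 4.39 and 3.90, and Wnt3a was at 4.14, 3.75 and 2.82 in PTC12, TTF1 and TTF4 with no value in PTC11. Wnt8a also lacked a value only in PTC11, and Wnt2 had values only in PTC12 (3.76) and TTF1 (4.98). Wnt8b, the most methylated ligand, had none in any line.

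Among antagonists Sfrp1, Sfrp2 and Dkk1 had H3K4me3 in all lines. Sfrp1, a broad Wnt inhibitor, was at 3.66, 3.90, 3.96 and 4.29 RPKM in PTC11, PTC12, TTF1 and TTF4, the narrowest range of the antagonists measured in all lines. Sfrp2 was at 3.34, 5.81, 4.11 and 3.60, and Dkk1 at 3.20, 4.42, 3.62 and 3.10. Sfrp4 had 3.92, 4.72 and 5.05 in PTC11, PTC12 and TTF1 and no value in TTF4, the line in which its promoter was methylated. Sfrp5 (3.98 and 3.53) and Dkk3 (2.40 and 3.85) had values only in PTC12 and TTF1. Dkk2 lacked one in PTC11, and Dkk4 had 1 value, 2.38 in TTF1.

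In H3K4me3 no difference between the origins was called at these genes, and 2 lines against 2 cannot show that the origins were alike. Of the 25 genes tested none passed an adjusted p of 0.05 in limma and none had an unadjusted p under 0.05, against 0.977% of all genes. Over all 13709 genes tested, 0.226% were called higher and 0.255% lower in TTF. The median difference of TTF minus PTC was 0.04 on the log2(RPKM + 1) scale for the 25 genes and 0.04 for all genes, with 15 genes above 0 and 10 below. Wnt5b differed by 0.43 ± 0.33 (SE), Fzd8 by 0.28 ± 0.49 and Sfrp2 by -0.16 ± 0.39, and the adjusted limma p was 1 for each. At Wnt1 (0.27 ± 0.24) and Wnt5b the difference was larger than its SE, 2 of 25 genes against 4.19% of all genes. After quantile normalization the origins did not overlap at Fzd8, Wnt5b and Wnt9a (TTF above, 3 of 25 against 14.2%) and at Dkk1 and Wnt5a (TTF below, 2 of 25 against 14.4%). Adding 1 before the logarithm makes these differences smaller than those of the RPKM themselves.

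The TTF lines were above the PTC lines at Wnt10b and Sfrp1, which is 2 of 25 genes, against 5.04% of all genes, and both lay below at none, against 3.17%. Wnt10b was at 3.34 and 3.57 RPKM in PTC11 and PTC12 and at 4.03 and 3.72 in TTF1 and TTF4. The origins of Wnt10b were 3.46 ± 0.166 and 3.88 ± 0.218 (SD, n = 2), and those of Sfrp1 were 3.78 ± 0.170 and 4.13 ± 0.233. These gaps were small beside the range of the other genes between lines. By contrast PTC11 and TTF4 both lay below PTC12 and TTF1 at 21 of 25 genes, against 81.4% of all genes.

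H3K4me3 values of some genes were shared with a neighbour. Wnt10a, Fzd4 and Fzd6 had exactly the value of another gene nearby in every line, Fzd10 in PTC12, TTF1 and TTF4, and Wnt7b in TTF4. For Fzd4 the neighbour was Tmem135, which starts close by on the opposite strand. A peak between such gene starts counts for both, and ChIP-seq does not mark the strand, so that these values cannot be assigned to the Wnt pathway gene alone.

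H3K36me3 had a value at nearly all genes: 34 in PTC11, 33 in PTC12 and TTF1 and 31 in TTF4. All lines had one at 31 of 34 genes, against 38.7% of all genes. Wnt16 had none in TTF4, Wnt8a none in TTF1 and TTF4, and Dkk4 none in PTC12 and TTF4. The median over the genes with a value was 1.78, 4.63, 1.39 and 4.67 RPKM in PTC11, PTC12, TTF1 and TTF4. PTC11 and TTF1 both lay below PTC12 and TTF4 at 31 of the 31 genes with a value in all lines, against 93.6% of all genes. The origins therefore overlapped at every one of the 31, and the share of all genes with both TTF lines above was 0.452% and below 3.05%.

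**Figure D4:**
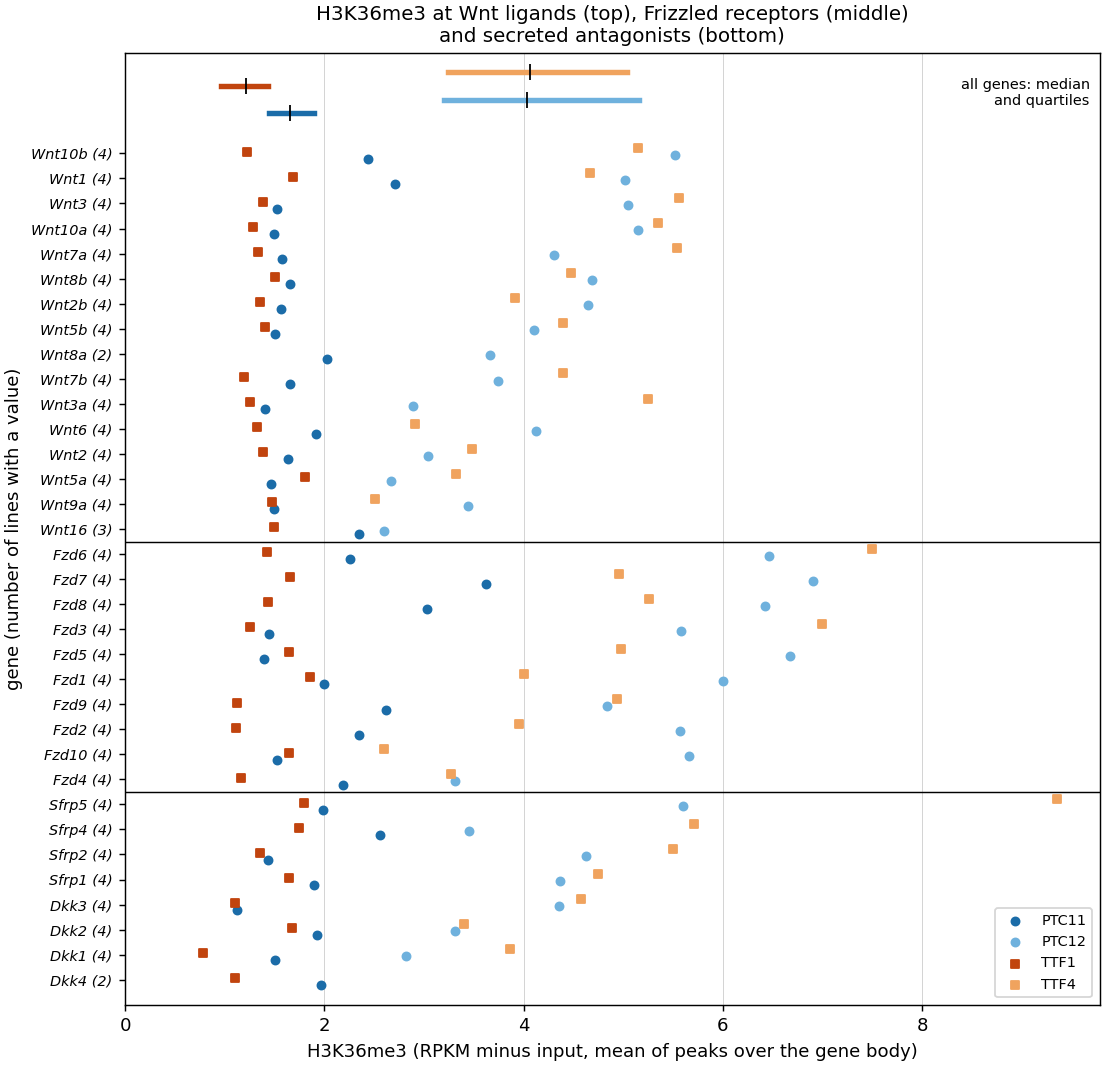
H3K36me3 in RPKM minus input over the gene body (horizontal axis) for each gene (rows, with the number of lines that had a value), 1 point per line, circles for PTC11 and PTC12 and squares for TTF1 and TTF4; the bars at the top give the quartiles and median of all genes with a value in all 4 lines. PTC11 and TTF1 lie to the left of PTC12 and TTF4 at every gene with 4 points, and the value farthest to the right is Sfrp5 in TTF4, 9.35 RPKM.

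The classes differed in their H3K36me3 rank among other genes. The median rank of the 10 receptors among all genes with a value was the 88.6th percentile in PTC11, the 84.1st in PTC12, the 74.6th in TTF1 and the 73.6th in TTF4. For the ligands it was 50.4, 56.2, 71.0 and 62.1, and for the antagonists 75.9, 61.9, 77.3 and 69.5. Receptors had the highest rank of the classes in PTC11, PTC12 and TTF4, and antagonists in TTF1. The median rank of receptors was thus lower in both TTF lines than in both PTC lines, and that of ligands higher. This held for the medians and not for each gene. After quantile normalization both TTF lines lay below both PTC lines at 3 of 10 receptors, against 13.7% of all genes. They lay above at 4 of 14 ligands, against 16.3%, and below at 1 ligand. The ranks and counts are a description with no test, and the classes were chosen with earlier results known.

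Fzd6 had the highest mean H3K36me3 of the receptors, with 2.26, 6.47, 1.42 and 7.50 RPKM in PTC11, PTC12, TTF1 and TTF4, and Fzd4 the lowest, with 2.18, 3.31, 1.16 and 3.28. Fzd7 had the largest difference between origins, at 3.63, 6.91, 1.65 and 4.96, a difference that shrank to -0.02 on the log2(RPKM + 1) scale without TTF1 and -0.22 without PTC12 and grew to -0.99 without PTC11 and -1.19 without TTF4. In PTC11 this put Fzd7 at the 99.5th percentile of all genes, and in TTF4 at the 73.9th. Fzd2 was at the 91.7th and 81.6th percentiles in PTC11 and PTC12 and at the 43.7th and 48.4th in TTF1 and TTF4. Fzd8 was at 3.03, 6.42, 1.44 and 5.26.

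Among ligands Wnt10b was highest, at 2.44, 5.52, 1.23 and 5.15 RPKM in PTC11, PTC12, TTF1 and TTF4. Wnt9a, the ligand with the most H3K4me3, had the lowest H3K36me3 of those measured in all lines, at 1.50, 3.44, 1.47 and 2.51. Wnt6 differed most between origins, at 1.92, 4.12, 1.32 and 2.91. Wnt8b, without H3K4me3 in any line, still had 1.66, 4.69, 1.51 and 4.47, close to the median of the 34 genes in each line.

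Among antagonists Sfrp5 had the highest mean, with 1.99, 5.60, 1.80 and 9.35 RPKM in PTC11, PTC12, TTF1 and TTF4. Its value in TTF4 was at the 99.1st percentile of that line. In TTF4 the Sfrp5 promoter had no H3K4me3 value and an mCpG of 0.850. It had no H3K4me3 value in PTC11 either, where its mCpG was 0.175. Sfrp4, likewise methylated and without H3K4me3 in TTF4, was at 2.56, 3.45, 1.74 and 5.71. By rank within the line Sfrp4 was at the percentiles 94.9, 38.1, 89.5 and 84.9, so that its highest RPKM, in TTF4, was not its highest rank. Dkk3 was at 1.13, 4.36, 1.10 and 4.58, and Dkk1 had the lowest mean of the antagonists with 4 values, at 1.51, 2.82, 0.778 and 3.86.

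No gene passed the test of origin in H3K36me3. Of the 31 genes tested none had an adjusted p under 0.05 in limma and none an unadjusted p under 0.05, against 0.681% of all genes, and over 17039 genes 0.0235% were called higher and 0.088% lower in TTF. The median difference of TTF minus PTC was -0.07 on the log2(RPKM + 1) scale, against -0.14 over all genes, with 11 genes above 0 and 20 below. It was -0.33 for receptors, -0.04 for ligands and 0.02 for antagonists. Of the 10 receptors 9 were below 0, and over all genes 12672 of 17039 were. Fzd7 differed by -0.61 ± 1.34 (SE), Wnt6 by -0.36 ± 0.99 and Sfrp5 by 0.28 ± 1.34, each with an adjusted limma p of 1. The error was larger than the difference at each of the 31 genes, and over all genes the difference was the larger in 2.54%.

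When the scale of the lines was made equal by quantile normalization, the errors fell. The origins then did not overlap at 10 of 31 genes, which is near the share of 30.1% over all genes. Both TTF lines then lay below both PTC lines at Fzd2, Fzd7, Fzd8 and Wnt10b, against 13.7% of all genes, and above at Wnt3a, Wnt5a, Wnt5b, Wnt7a, Sfrp2 and Sfrp5, against 16.3%. Fzd7 then differed by -0.51 ± 0.28 (SE), Fzd2 by -0.49 ± 0.21 and Fzd8 by -0.42 ± 0.24. The adjusted limma p was 0.998 for each, so that none passed the test on this scale either.

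In mCpG, 0 of 34 genes passed an adjusted p of 0.05 in limma, and 1, Dkk3, had an unadjusted p under 0.05, against 4.74% of all genes. Over all genes tested 0.00197% of genes were called higher and 0.00197% lower in TTF. The median difference of TTF minus PTC, after subtracting the mean of each line, was -0.0612 for the 34 genes and -0.0100 for all genes. Without that subtraction it was 0.0259 for the 34 genes and 0.0771 for all genes, so that its sign depended on centring. Centring lowers a promoter of little methylation in TTF4, whose mean was high, and all 10 receptors were below 0 on that scale, against 26871 of 50657 genes in all, whereas 6 of 10 were above 0 as deposited, against 75.5% of all genes.

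The largest differences of ligands and receptors were at Wnt3, -0.199 ± 0.131 (SE), and Fzd3, -0.156 ± 0.130, with an adjusted limma p of 1.00 for each. Without TTF4 they were -0.0219 and -0.0940, and Fzd3 was -0.0809 without PTC11. On the centred scale the TTF lines were above the PTC lines at Dkk3 and Dkk4, 2 of 34 genes against 15% of all genes. They lay below at Wnt1, Wnt8b, Fzd3 and Fzd6, 4 of 34 against 12.8%. In the fractions as deposited the genes were different. Both TTF lines were then above at Dkk1, Dkk3, Fzd5, Fzd7, Wnt7a, Wnt9a and Wnt10a, 7 of 34 against 20.5%, and below at Wnt3, 1 of 34 against 3.36%. Dkk3 was the only gene on the same side on both scales. With quantile normalization TTF was above at Dkk3, Sfrp4 and Wnt9a, 3 of 34 against 16.5%, and below at Fzd3, Fzd6, Fzd8, Wnt1, Wnt3, Wnt8a and Wnt8b, 7 of 34 against 17.1%.

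Some of the separations in the deposited fractions were narrow. Fzd7 was at 0.00961 ± 0.000729 in PTC and 0.0171 ± 0.00100 in TTF (SD, n = 2), so that the gap was large beside the spread and yet under 0.01 in methylation. Wnt7a, a ligand of limb and nervous system, was at 0.0773 ± 0.00615 and 0.136 ± 0.00404. Of the 34 genes 6 had a centred difference larger than its SE, namely Dkk3, Sfrp4, Sfrp5, Wnt3, Fzd3 and Fzd6, against 26.9% of all genes. The other 28 differed between origins by less than their SE.

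**Figure D5:**
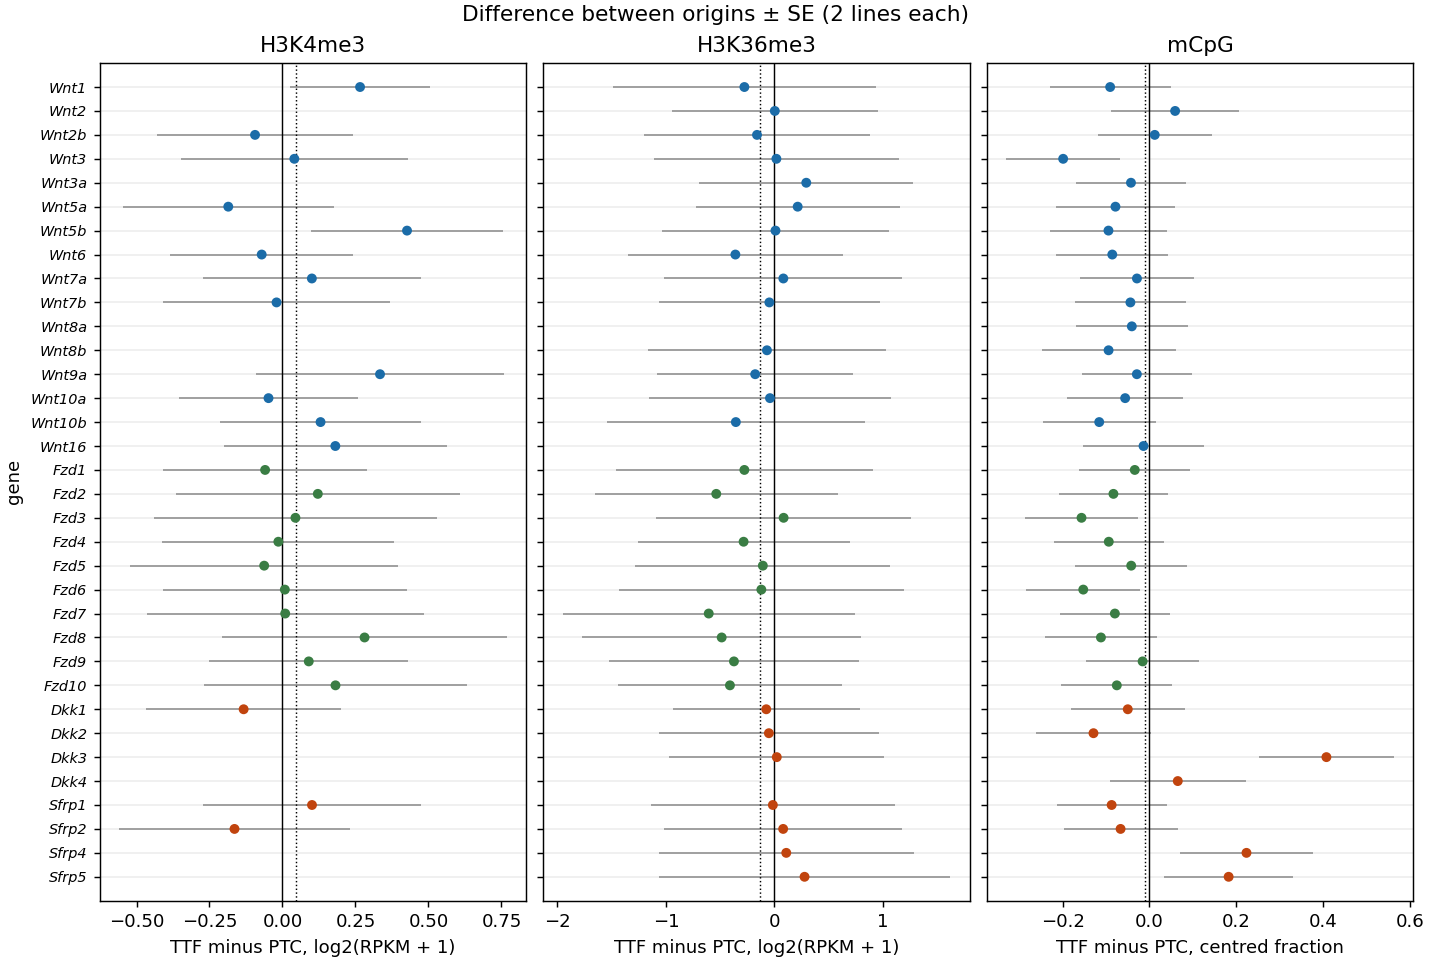
Difference of TTF minus PTC for each gene (rows, blue for ligands, green for receptors, red for antagonists) with its SE as a bar, on the log2(RPKM + 1) scale for H3K4me3 and H3K36me3 and as a centred fraction for mCpG; the solid line is 0, the dotted line the median of all genes, and genes without a value in all 4 lines have no point. Dkk3 in mCpG, at 0.407, lies farthest from 0 relative to its SE.

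H3K27me3 was seen at 1 of the 34 genes. Wnt10a had 1.64 RPKM in TTF1, and no gene of the list had a value in TTF4 or in either PTC library. The libraries were sparse throughout, with 11 to 144 genes that had a value. Both PTC libraries carried the name of line PTC11, so that the origins were not compared.

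Some Wnt genes lie side by side in the genome. Wnt1 and Wnt10b start 11.7 kb apart on chromosome 15, Wnt3a and Wnt9a 16.2 kb apart on chromosome 11, and Wnt6 and Wnt10a 19.6 kb apart on chromosome 1. Neighbours differed in some values and were close in others. In PTC12 mCpG was 0.393 at Wnt1 and 0.131 at Wnt10b, and in TTF1 H3K4me3 was 3.75 RPKM at Wnt3a and 6.58 at Wnt9a. At Wnt6 and Wnt10a mCpG was 0.0586 and 0.133 in PTC12. By contrast H3K36me3 in PTC12 was 5.01 RPKM at Wnt1 and 5.52 at Wnt10b. Likewise mCpG in TTF1 was 0.0473 at Wnt3a and 0.0373 at Wnt9a.

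The rest of the pathway was measured in 52 further genes, from Wnt secretion to nuclear factors and known targets. None passed the limma threshold in any assay, of 42 tested for H3K4me3, 47 for H3K36me3 and 52 for mCpG. Their median mCpG difference on the centred scale was -0.0817, against -0.0612 for ligands, receptors and antagonists together. The largest mCpG difference was at Cdx4, a homeobox target of Wnt signalling on the X chromosome, at 0.324 ± 0.146 (SE; adjusted limma p 1.00). Cdx4 was at 0.0823, 0.0747, 0.0830 and 0.896 in PTC11, PTC12, TTF1 and TTF4, and so had the form seen at Sfrp4 and Sfrp5, with TTF4 apart from the other lines. Cdx4 had no H3K4me3 value in TTF4, nor in PTC12.

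Among co-receptors and alternative receptors, all 6 had H3K4me3 in all lines, and Ror1, a receptor for Wnt5a, differed most in mCpG. It was at 0.140, 0.267, 0.0139 and 0.0299 in PTC11, PTC12, TTF1 and TTF4, without overlap, with a centred difference of -0.269 ± 0.130 (SE) and an adjusted limma p of 1.00. In H3K4me3 the largest difference was at Wif1, a secreted Wnt inhibitor outside the Sfrp and Dkk families, at 0.36 ± 0.39 on the log2(RPKM + 1) scale. Wif1 was at 3.31 and 3.70 RPKM in the PTC lines and 4.69 and 4.85 in the TTF lines. In H3K36me3 it was at Csnk1a1, the kinase that primes β-catenin, at -0.66 ± 1.26.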

How the data were processed

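The samples were PTC iPSC and TTF iPSC lines, with 1 library per line for H3K4me3, H3K36me3 and CpG methylation. The members and gene lists were chosen with earlier results of these data known. Groups came from the sample labels.

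The authors trimmed ChIP-seq reads with Trim Galore, aligned them to mm10 with Bowtie (2.1.0), called peaks per library against input with MACS (2.0.10), counted reads in peaks with Bedtools (2.17.0), subtracted the input and deposited RPKM per gene, as the mean of peaks from 2 kb before to 3 kb after the TSS or, in the case of H3K36me3, of peaks along the gene. Where no peak was kept the gene is blank, and comparisons depend on peak calling. Nanopore reads were aligned with Minimap2 (2.17-r941), and the authors deposited the fraction of methylated CpGs per gene, averaged over sliding windows within 1 kb of the TSS. No per-sample column was left out. Neither table gives depth or coverage, so that precision rests on the 2 lines of each origin, with which an exact permutation test cannot go below p = 0.33.

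Only genes measured in each of the 4 lines entered the fit, made with limma 3.58.1 (R 4.3.3; lmFit, then eBayes allowing a variance trend) on log2(RPKM + 1), or on the fraction minus the mean of the line, as TTF minus PTC. Benjamini-Hochberg adjustment was over all genes fitted. H3K27me3 was not tested. No filter on low values was used. Named genes were, by class and assay, those of highest and lowest mean, largest difference, missing values, or mCpG of at least 0.2 in any line; a few others (the pairs of neighbours and relatives of named genes among them) were chosen after their values were seen. Coordinates are on mm10. CpGs were counted in the GRCm38.p6 sequence, after 54851 of 55144 genes were found with the same start and end in GENCODE M21. Alternatives were quantile normalization, other pseudocounts, filters and centring, absent values taken as 0, no sex chromosomes, no variance trend, and each line left out. Python 3.11.15 with numpy 2.4.6, pandas 2.3.3 and matplotlib 3.10.9 was used.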

Additional observations from a re-analysis of the deposited data

How the results depend on the processing

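The count of 0 genes past the adjusted limma p of 0.05 held in each assay under every alternative. Over the alternatives the difference of Dkk3 in mCpG ran from 0.347 to 0.494. With all 4 lines kept, its smallest adjusted limma p was 0.725, without a variance trend. Counts of genes whose origins did not overlap depended on scale and on single lines. Quantile normalization gave 5 of 25 genes in H3K4me3, 10 of 31 in H3K36me3 and 10 of 34 in mCpG. These counts took the place of 2, 0 and 6. Over all genes the shares were 28.5%, 30.1% and 33.6%, in place of 8.21%, 3.50% and 27.8%. Taking absent values as 0 gave 4 of 33 in H3K4me3 and 2 of 34 in H3K36me3, against 7.77% and 9.93% of all genes. With each line left out the counts ran from 8 to 19 in H3K4me3, 3 to 28 in H3K36me3 and 9 to 32 in mCpG. Setting 1 line against 2 separates more genes by construction, and over all genes the shares were 39.6% to 68.2%, 16.6% to 86.3% and 55.9% to 71.6%. The median difference in mCpG ran from -0.170 without TTF1 to 0.0429 without TTF4, in H3K4me3 from -0.17 without PTC11 to 0.25 without TTF4, and in H3K36me3 from -0.69 without TTF4 to 0.49 without TTF1. Some of the largest differences changed sign when a line was left out: Fzd8 (-0.065 to 0.63) and Sfrp2 (-0.49 to 0.16) in H3K4me3, and Sfrp5 (-0.67 to 1.22) and Wnt6 (-0.77 to 0.046) in H3K36me3. Fzd7 in H3K36me3 ran from -1.19 to -0.02, Wnt5b in H3K4me3 from 0.07 to 0.78 and Fzd3 in mCpG from -0.232 to -0.0809. Wnt3 in mCpG went from -0.199 to -0.0219 without TTF4 and -0.375 without TTF1. Quantile normalization turned the median in H3K36me3 to 0.10, and the cause was not tested. Without centring the median in mCpG was 0.0259. Centring subtracts a fixed mean from each line and so shifts the difference of every gene by the same amount. Without a line, the lone line of its origin is assumed to vary like the others. No paired analysis was possible because the line numbers 11 and 12 of PTC are not shared with 1 and 4 of TTF. Absent depth and coverage leave the error of single values unknown.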
